A study of Mus musculus with 24 samples.

Results

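The respiratory chain genes of mouse were followed in cultured ovarian surface epithelial cells, the layer that covers the ovary. Members were chosen by gene name: nuclear genes for subunits of complexes I to V (names starting Nduf, Sdh, Uqcr, Cox4 to Cox8 with a letter, or Atp5) and the protein genes of the mitochondrial genome (names starting mt-Nd, mt-Co, mt-Cytb or mt-Atp). The rule found 96 genes, 83 nuclear and 13 mitochondrial, of 35687 gene identifiers listed for the monolayer and spheroid libraries and of 35688 listed for the Snail and for the BRCA1 libraries. By complex, the nuclear members comprised 35 genes of complex I, 4 of complex II, 8 of complex III, 18 of complex IV and 15 of complex V, beside the complex V-related Atp5s and 2 pseudogenes. The mitochondrial members comprised 7 genes of complex I, 1 of complex III, 3 of complex IV and 2 of complex V. The rule passes over Cox4i1, Cyc1 and Ndufab1, whose values are given with the related genes.

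Poly(A)-selected RNA was sequenced from 24 libraries in 8 groups of 3. In the line m1102 the groups were spheroids with TGFB1, untreated spheroids, monolayers with TGFB1 and untreated monolayers, and then monolayers transduced with a lentiviral Snail construct or with the empty vector WPI. TGFB1, a cytokine that drives epithelial cells toward a mesenchymal state, was used at 10 ng/mL, and cells for the TGFB1 spheroids received it during the 4 days before they were moved to low-attachment plates. The remaining groups came from the line mOSE_BRCA1_fl, derived from mice with floxed alleles and infected with an adenovirus carrying Cre (BRCA1_ko) or GFP (BRCA1_wt). Each experiment thus used 1 line, all m1102 groups share that line, and no label states that the 3 libraries of a group are independent cultures, so p-values measure the spread between these libraries. All 6 monolayer libraries of the TGFB1 experiment are titled as re-analysed and the spheroid libraries are not, so the effect of the culture and that of the source of the data cannot be told apart.

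The respiratory chain sits in the inner mitochondrial membrane. Complex I (NADH dehydrogenase) and complex II (succinate dehydrogenase) pass electrons to ubiquinone, complex III (the cytochrome bc1 complex) hands them to cytochrome c, and complex IV (cytochrome c oxidase) passes them to oxygen, while complex V (ATP synthase) uses the proton gradient so built to make ATP. All of these complexes except complex II join subunits made in the cytosol from nuclear genes with subunits made inside the mitochondrion from its own genome, so the levels of RNA from both genomes bear on each of them.

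The mitochondrial genes lie end to end and are read out as long transcripts that are cut into messages, and some of the genes share bases. These shared stretches are shown because their letters belong to 2 genes. The part of a read that lies in one matches both genes where they lie on the same strand. For genes on opposite strands it can be told apart only where strand was used in quantification, which is not given in the sources used here. The sequences come from GENCODE M21 transcripts on GRCm38, with 30 bases on either side in lower case and the shared bases in capitals. mt-Atp8 and mt-Atp6, subunits of ATP synthase, share 43 bases on the plus strand (chrM:7927-7969), mt-Nd4l and mt-Nd4, subunits of complex I, share 7 bases on that strand (chrM:10167-10173), and mt-Nd5 and mt-Nd6, which are read from opposite strands, meet over 14 bases (chrM:13552-13565).
mt-Atp8 and mt-Atp6, chrM:7897-7999, plus strand: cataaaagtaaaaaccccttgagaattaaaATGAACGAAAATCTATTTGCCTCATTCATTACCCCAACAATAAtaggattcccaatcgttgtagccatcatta
mt-Nd4l and mt-Nd4, chrM:10137-10203, plus strand: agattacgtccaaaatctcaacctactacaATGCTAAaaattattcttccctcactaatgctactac
mt-Nd5 and mt-Nd6, chrM:13522-13595, plus strand: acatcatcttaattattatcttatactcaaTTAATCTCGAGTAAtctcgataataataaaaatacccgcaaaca

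The promoters of nuclear members were searched for binding motifs of NRF1, GABP and ERR alpha, factors known for driving nuclear respiratory genes. RefSeq promoters on GRCm38.p6, each 300 bases from 250 before to 50 after the start, were matched for 66 of the 83 nuclear members. All motifs were sought on both strands. The NRF1 motif, GCGCA and GCGC with any base between, was in 17 of them (25.8%), against 5.19% of all 27025 genes in the set. The GABP motif CCGGAAG, of the ETS kind, was in 16 of the 66 (24.2%), against 9.93% of all genes, and 4 members held both motifs. The ERR alpha motif TCAAGGTCA was in the promoters of 2 members, Atp5g3 and Sdhd (3.03%), against 0.466% of all genes. A match describes the letters only. The 250 bases before the start are printed for 3 genes described later: Atp5k, a small subunit of ATP synthase, with an NRF1 motif in the printed bases and the GABP motif in the searched bases after the start, which are not printed; Cox6a1, the broadly expressed form of a complex IV subunit, with 2 NRF1 motifs and, in reverse orientation, the GABP motif; and Cox7a1, the heart and muscle form of another complex IV subunit, with none of the 3 motifs. Capitals mark the motifs.
Atp5k, chr5:108434400-108434649, minus strand: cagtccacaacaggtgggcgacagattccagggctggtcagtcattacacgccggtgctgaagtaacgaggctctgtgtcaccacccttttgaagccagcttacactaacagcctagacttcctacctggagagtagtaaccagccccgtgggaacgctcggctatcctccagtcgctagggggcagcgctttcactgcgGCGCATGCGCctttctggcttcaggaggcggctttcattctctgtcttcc
Cox6a1, chr5:115348959-115349208, minus strand: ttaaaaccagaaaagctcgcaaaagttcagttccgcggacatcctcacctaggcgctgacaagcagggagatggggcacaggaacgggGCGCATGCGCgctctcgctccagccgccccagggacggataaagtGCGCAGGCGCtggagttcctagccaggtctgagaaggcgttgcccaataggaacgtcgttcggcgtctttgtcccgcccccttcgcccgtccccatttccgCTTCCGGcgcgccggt
Cox7a1, chr7:30183921-30184170, plus strand: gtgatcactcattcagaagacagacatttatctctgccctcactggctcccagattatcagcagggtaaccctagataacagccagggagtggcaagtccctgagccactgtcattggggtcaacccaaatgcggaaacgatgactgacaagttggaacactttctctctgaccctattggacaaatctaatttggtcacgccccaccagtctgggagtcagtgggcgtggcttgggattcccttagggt

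Levels are in scaled TPM, the deposited transcripts-per-million values to which a factor per library had been applied; they take transcript length into account, so genes of 1 library can be compared. Summed over all genes they ran from 955433 to 1166749 in the monolayer and spheroid libraries, from 983449 to 1021026 in the Snail and WPI libraries and from 796668 to 1810667 in the BRCA1 libraries. Of the members, 89 reached a level of 1 in at least 3 libraries and were tested for monolayers and spheroids and for Snail, and 90 for BRCA1. Left out in the first table were 2 pseudogenes (Atp5c1-ps, Atp5l2-ps), the testis forms Cox6b2, Cox7b2 and Cox8c, the muscle form Cox8b, and Ndufa4l2, a hypoxia-induced relative of Ndufa4 whose level stayed at or below 0.473 in all 12 libraries. Snai1 in the Snail libraries had levels of 234, 195 and 193, against 13.7, 10.1 and 9.81 in WPI libraries, while Brca1 had levels of 5.34, 11.1 and 4.09 in the libraries labelled BRCA1_ko, against 4.27, 12.3 and 3.66 in BRCA1_wt libraries, which overlap and do not check those labels. As a check of cell type, 12 ovarian surface and mesothelial markers summed to 266 to 496 in spheroids with TGFB1, 284 to 492 in untreated spheroids, 1195 to 1546 in monolayers with TGFB1 and 2233 to 2363 in untreated monolayers. Msln was present in all of these 12 libraries, whereas the keratin Krt8 was at or below 0.406. In bulk RNA, fewer cells of a type and less RNA per cell cannot be told apart.

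The ratio of the 2 genomes differed with culture and with TGFB1. Mitochondrial members together had 73869, 162043 and 131554 scaled TPM in spheroids with TGFB1, 83093, 74842 and 77612 in untreated spheroids, 76185, 80842 and 82732 in monolayers with TGFB1, and 66171, 64802 and 72057 in untreated monolayers. Nuclear members together had 19575, 23069 and 22589 in spheroids with TGFB1, 19724.0, 20364 and 20972 in untreated spheroids, 23592, 24936 and 25186 in monolayers with TGFB1, and 32671, 31767 and 32773 in untreated monolayers. Untreated monolayers thus had the highest nuclear sums and the lowest mitochondrial sums of the 4 groups, and TGFB1 spheroid library 1 lay far below the other two in mitochondrial RNA.

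Within a library the mitochondrial sum was 3.77, 7.02 and 5.82 times the nuclear sum in spheroids with TGFB1, 4.21, 3.68 and 3.70 times in untreated spheroids, 3.23, 3.24 and 3.28 times in monolayers with TGFB1, and 2.03, 2.04 and 2.20 times in untreated monolayers. No library of the other 3 groups overlapped the untreated monolayers. The mean log2 ratio was higher by 0.89 in untreated spheroids than in untreated monolayers, by 0.64 in TGFB1 monolayers than in untreated monolayers, by 0.72 in TGFB1 spheroids than in TGFB1 monolayers, and by 0.48 in TGFB1 spheroids than in untreated spheroids, where 1 TGFB1 library lay among the untreated ones. Without TGFB1 spheroid library 1 that last difference was 0.73, and without library 2 it was 0.28. These comparisons share groups and are given as values, with no test. In the share of all signal, mitochondrial members took 11.1% in TGFB1 spheroids, 8.20% in untreated spheroids, 8.29% in TGFB1 monolayers and 6.82% in untreated monolayers, and nuclear members took 1.99% in TGFB1 spheroids, 2.13% in untreated spheroids, 2.55% in TGFB1 monolayers and 3.27% in untreated monolayers. In the Snail experiment the ratio was 2.75, 2.59 and 2.60 in Snail libraries, against 2.91, 2.40 and 2.57 in WPI libraries, which overlap. In the libraries labelled BRCA1_ko it was 4.90, 4.27 and 5.75, against 1.84, 4.05 and 3.92 in BRCA1_wt libraries, where 1 library lay far below the other two.

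**Figure D1:**
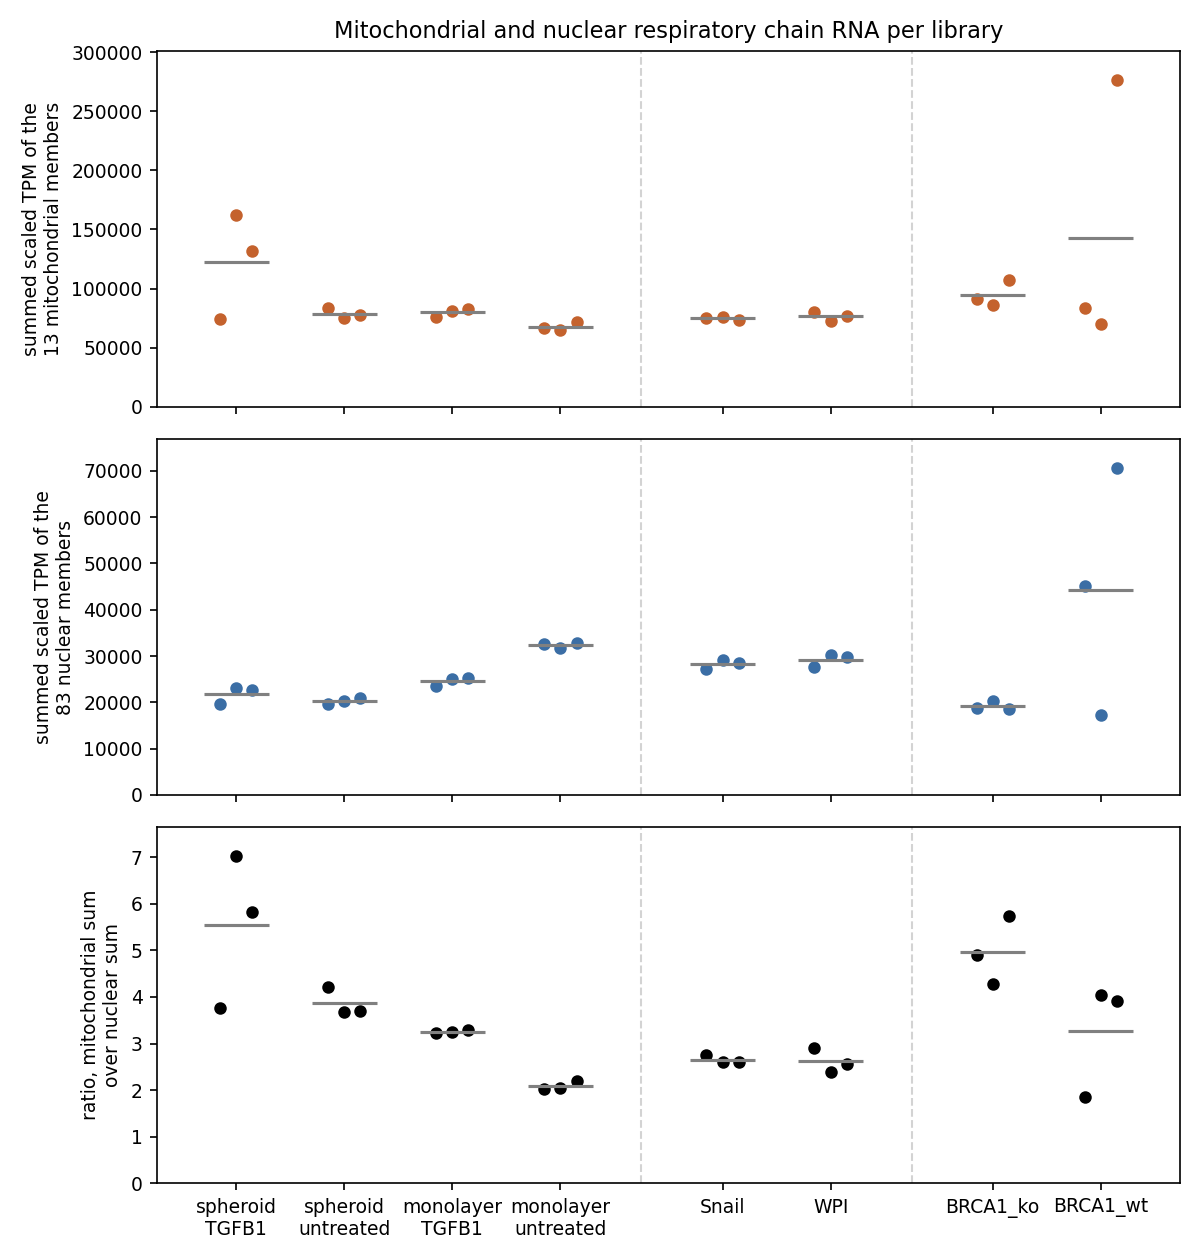
Summed scaled TPM of the 13 mitochondrial members (top) and of the 83 nuclear members (middle) in each of the 24 libraries, by group. The ratio of the 2 sums is at the bottom. Points are libraries and grey bars are means of 3 libraries. Untreated monolayers have the lowest ratios of the 12 m1102 culture libraries (2.03 to 2.20), and TGFB1 spheroids spread from 3.77 to 7.02.

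In untreated spheroids, nuclear respiratory chain RNA was lower than in untreated monolayers for most subunits, and mitochondrial RNA was not. Of 76 nuclear members tested, 62 fell and 3 rose in spheroids, with a median log2 difference of -0.54, against 27.7% of all 13509 genes tested that fell, 27.6% that rose and a median of 0.01. Of the 13 mitochondrial members none was called by limma, 1 had an unadjusted p under 0.05, and their median was 0.01. All spheroid libraries were below all monolayer libraries for 63 nuclear members and above them for 4, against 32.5% and 32.8% of all genes. The nuclear sum was 20353 ± 624 in untreated spheroids, against 32404 ± 554 in untreated monolayers (SD, n = 3 each), which is 37.2% less, and the mitochondrial sum was 78515 ± 4199 in untreated spheroids, against 67677 ± 3855 in untreated monolayers, which is 16.0% more. All complexes were involved: 27 of 35 members of complex I fell (median -0.45), 3 of 4 of complex II (median -0.62), 8 of 8 of complex III (median -0.70), 9 of 13 tested of complex IV (median -0.66) and 15 of 15 of complex V (median -0.77). The summed ovarian surface markers given above also stood lower in spheroids than in monolayers, and their part in these differences was not tested.

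Ndufa4, which was first assigned to complex I and is now counted in complex IV (ENSMUSG00000029632, chr6:11900292-11907497), had 279, 258 and 400.4 scaled TPM in untreated spheroids, against 1092, 1119 and 1102 in untreated monolayers. The groups lay far apart, and the level was 3.59-fold lower in spheroids (log2 -1.84 ± 0.15 SE, adjusted p = 2.82e-06). Atp5g1, which encodes the c subunit of the ATP synthase rotor (ENSMUSG00000006057, chr11:96068852-96075670), had 267, 262 and 316 in untreated spheroids, against 879, 889 and 862 in untreated monolayers. It was 3.11-fold lower in spheroids (log2 -1.64 ± 0.08, adjusted p = 9.59e-08). The same rotor protein is also made from Atp5g3, with 643, 637 and 663 in untreated spheroids against 1147, 1064 and 1098 in untreated monolayers (log2 -0.77), and from Atp5g2, with 32.9, 44.3 and 41.6 in untreated spheroids against 62.0, 47.0 and 50.3 in untreated monolayers (log2 -0.41, adjusted p = 0.0388). Atp5g1 thus had the largest decrease of the 3 genes, and the call of Atp5g2 was lost without untreated monolayer library 1 or 3 or untreated spheroid library 1 (adjusted p from 0.064 to 0.153).

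Further down the chain, Cox5a, a matrix-side subunit of complex IV, had 515, 500.4 and 427 in untreated spheroids, against 1091, 1073 and 1149.7 in untreated monolayers (log2 -1.20, adjusted p = 1.09e-05). Atp5o, which ties the catalytic head of ATP synthase to its stalk, had 97.3, 101 and 115 in untreated spheroids, against 242, 224 and 248 in untreated monolayers (log2 -1.18, adjusted p = 2.09e-06). Atp5k, whose promoter is printed above, had 294, 281 and 346 in untreated spheroids, against 696, 634 and 670.1 in untreated monolayers (log2 -1.12, adjusted p = 1.49e-06). In none of the 3 did the groups overlap. Uqcrfs1, the Rieske iron-sulfur protein of complex III (ENSMUSG00000038462, chr13:30540308-30545362), had 126, 132 and 139 in untreated spheroids, against 272, 277 and 277 in untreated monolayers (log2 -1.05, adjusted p = 4.81e-07). Uqcrc1, a core subunit of the same complex, also fell (log2 -0.42, adjusted p = 0.00493). Atp5b, the catalytic subunit of ATP synthase and the nuclear member with the highest level in untreated monolayers, had 795, 853 and 939.5 in untreated spheroids, against 1591, 1352 and 1460.4 in untreated monolayers (log2 -0.77, adjusted p = 0.00016). Its spheroid libraries were all below the lowest monolayer library. Members with an NRF1 motif in the matched promoters had a median of -0.50 (17 genes) and those without it -0.58 (46 genes).

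The subunits that carry electrons within complexes I and II were less uniform. Ndufs1, the largest iron-sulfur subunit of complex I, fell to 77.5, 76.8 and 77.6 in untreated spheroids, against 119, 108 and 112 in untreated monolayers (log2 -0.54, adjusted p = 2.78e-05). Ndufv1, the subunit that binds NADH, had 117, 116 and 129 in untreated spheroids, against 131, 118 and 129.9 in untreated monolayers (log2 -0.07, adjusted p = 0.411), and these overlap. Sdhb, the iron-sulfur subunit of succinate dehydrogenase, had 48.2, 50.9 and 53.3 in untreated spheroids, against 70.0, 64.8 and 71.4 in untreated monolayers (log2 -0.43, adjusted p = 0.00259). Its partner Sdha, the flavoprotein subunit, had 180.4, 176 and 185 in untreated spheroids, against 170.1, 182 and 178 in untreated monolayers (log2 0.03 ± 0.06, adjusted p = 0.699). Succinate dehydrogenase has no mitochondrially encoded subunit, and within it the RNA of these partners moved unequally.

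The 3 nuclear members that rose were Cox6a2, Cox7a1 and Ndufa6. Cox6a2, the heart and skeletal muscle form of complex IV subunit 6A (ENSMUSG00000030785, chr7:128205435-128206387), had 73.4, 84.6 and 30.3 in untreated spheroids, against 10.6, 7.98 and 10.4 in untreated monolayers. The groups were apart although the spheroid libraries spread widely (log2 2.47 ± 0.53, adjusted p = 0.0022). Its broadly expressed counterpart Cox6a1 (ENSMUSG00000041697, chr5:115345642-115348981) had 1031, 1073 and 867 in untreated spheroids, against 1172, 1224 and 1216 in untreated monolayers (log2 -0.29, adjusted p = 0.0689), so that Cox6a1 stayed the more abundant form. Cox7a1, the heart and muscle form of subunit 7A (ENSMUSG00000074218, chr7:30184144-30186078), had 55.9, 46.4 and 16.5 in untreated spheroids, against 15.3, 15.7 and 12.4 in untreated monolayers (log2 1.23 ± 0.41, adjusted p = 0.0245). The third spheroid library lay just above the monolayers, and the call was lost when monolayer library 1 or 3 or spheroid library 1 or 2 was left out (adjusted p from 0.0514 to 0.101). Its counterpart Cox7a2, the liver form, went the other way, with 309, 315 and 325 in untreated spheroids, against 541, 510.0 and 559 in untreated monolayers (log2 -0.76, adjusted p = 1.78e-05). Ndufa6, an accessory subunit of complex I, had 387, 406 and 391 in untreated spheroids, against 299.6, 317 and 314 in untreated monolayers (log2 0.34, adjusted p = 0.0165). Its call was lost without untreated monolayer library 1 (adjusted p = 0.0551) or untreated spheroid library 2 (adjusted p = 0.0519).

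Untreated spheroids, where Cox6a2 and Cox7a1 were highest by group mean, also had the highest sums on the list of granulosa and theca markers. The 6 genes of that list summed to 39.8 to 83.7 in TGFB1 spheroids, 99.8 to 219.5 in untreated spheroids, 30.9 to 33.6 in TGFB1 monolayers and 32.9 to 37.1 in untreated monolayers. Among them Cyp11a1, the enzyme that starts steroid synthesis, had 3.23, 0.502 and 41.1 in TGFB1 spheroids and 151, 152 and 35.3 in untreated spheroids, and was below 1 in all monolayers. Of the list, 3 genes had levels high enough to be tested, and all 3 were called higher in untreated spheroids than in untreated monolayers, against 27.6% of all genes. The FSH receptor gene Fshr, also on the list, was under 0.1 in all 4 groups. The part of granulosa and theca cells in the muscle-form subunits was not tested.

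**Figure D2:**
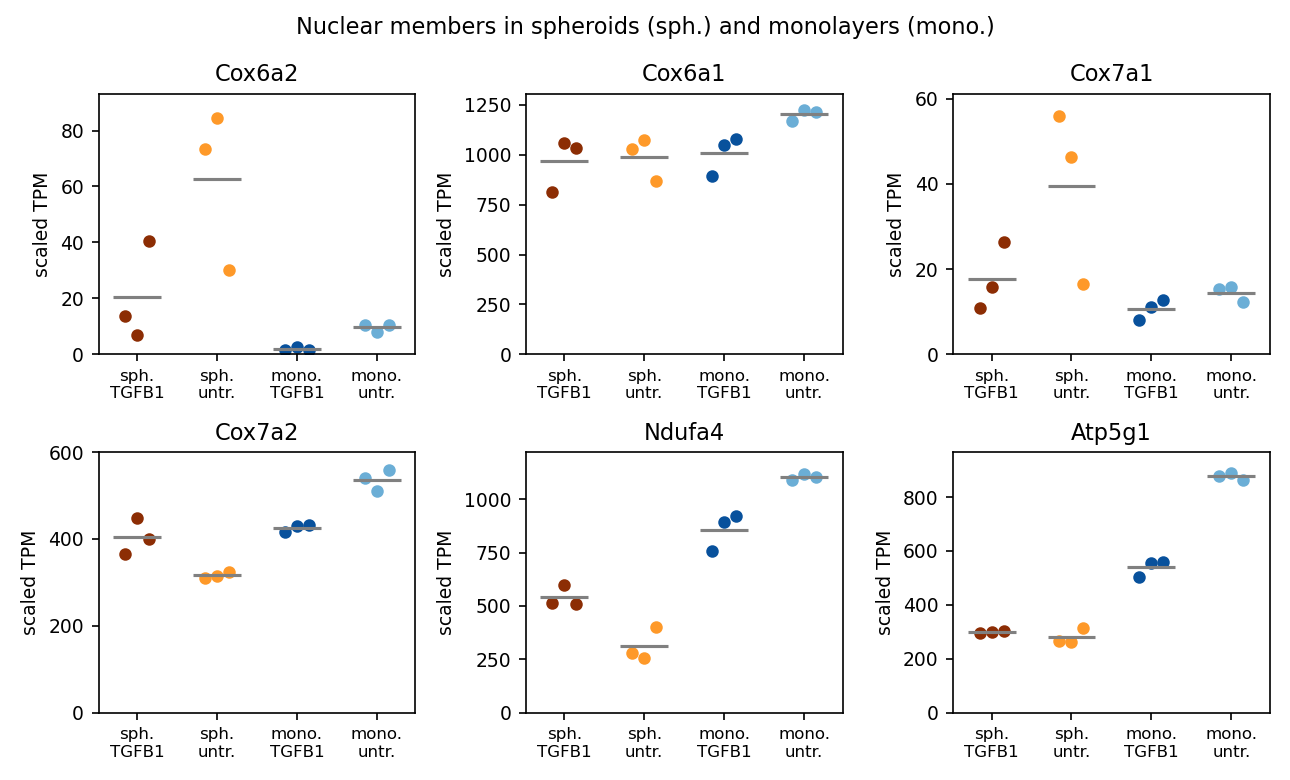
Scaled TPM of 6 nuclear members in each library of the 4 m1102 culture groups, on linear axes. Points are libraries and grey bars are group means. Cox6a2 and Cox7a1 are highest in untreated spheroids, whereas Cox7a2, Ndufa4 and Atp5g1 are lowest there and Cox6a1 stays within 811 to 1224.

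Among mitochondrial members in untreated spheroids, the complex IV genes stood above the others. mt-Co1, the catalytic subunit of cytochrome c oxidase (ENSMUSG00000064351, chrM:5328-6872), had 17913, 15889 and 12320.4 in untreated spheroids, against 8282, 8702 and 9241 in untreated monolayers. The groups did not overlap but the difference missed the threshold (log2 0.80 ± 0.34, adjusted p = 0.0683). mt-Co2, which takes electrons from cytochrome c, had 13725, 12379 and 11889 in untreated spheroids, against 8761, 8300.1 and 9573 in untreated monolayers (log2 0.51, adjusted p = 0.18). mt-Co3, the third core subunit, had 9543, 8631 and 9056 in untreated spheroids, against 7926, 7631 and 8439.5 in untreated monolayers (log2 0.18, adjusted p = 0.54). These 3 genes were the mitochondrial members whose spheroid libraries were all higher than the monolayers, and mt-Nd1 was the only one whose spheroid libraries were all lower. Of all genes tested, 32.8% were higher and 32.5% lower without overlap, so neither count among the 13 members was above the share of all genes. At the other end, mt-Nd3, a small subunit of complex I, had 846, 726 and 1264 in untreated spheroids, against 1395, 1115 and 1274 in untreated monolayers (log2 -0.45, adjusted p = 0.0968).

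The make-up of the mitochondrial RNA differed between cultures. mt-Co1 made up 15.8%, 23.6% and 20.1% of the signal of mitochondrial members in TGFB1 spheroids, 21.6%, 21.2% and 15.9% in untreated spheroids, 12.1%, 12.7% and 12.7% in TGFB1 monolayers and 12.5%, 13.4% and 12.8% in untreated monolayers. In Snail libraries the share was 12.5%, 12.2% and 12.3%, and in WPI libraries it was 12.9%, 12.7% and 12.2%. All 6 spheroid libraries were above all 12 monolayer libraries of the m1102 line. The gene with the highest mitochondrial level was mt-Co1 in both spheroid groups and mt-Atp8 in the monolayers with and without TGFB1. At 204 bases mt-Atp8 is the shortest mitochondrial member, and the part of the length correction in its rank was not tested. mt-Atp8 shares its last bases with mt-Atp6, as printed above, and made up 14.2%, 10.5% and 11.1% of the mitochondrial signal in TGFB1 spheroids, 12.3%, 13% and 13.6% in untreated spheroids, 14.7%, 14.8% and 14.9% in TGFB1 monolayers and 14.3%, 14.5% and 14.9% in untreated monolayers.

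**Figure D3:**
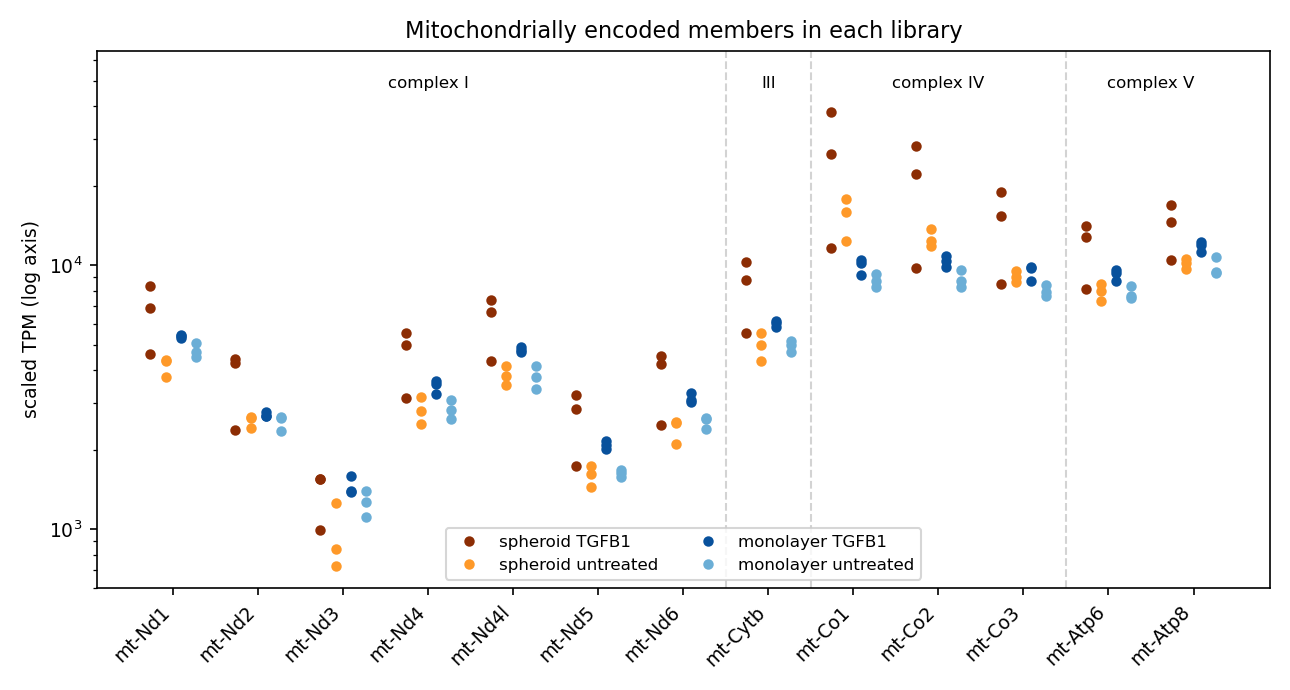
Scaled TPM of the 13 mitochondrial members in each library of the 4 m1102 culture groups, on a log axis; points are libraries and genes are ordered by complex. mt-Co1 reaches 38258 in TGFB1 spheroids and lies between 8282 and 9241 in untreated monolayers, while mt-Nd3 is the lowest gene in all 4 groups.

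In monolayers, nuclear respiratory chain RNA was lower with TGFB1 for most subunits, and no mitochondrial member was called. Of 76 nuclear members 53 fell and none rose with TGFB1, against 7.79% of all 13509 genes that fell and 9.12% that rose. All 76 nuclear differences were negative (median log2 -0.36), all 13 mitochondrial differences were positive (from 0.09 to 0.36, median 0.24), and the median of all genes tested was 0.01. No mitochondrial member passed the threshold of limma or had an unadjusted p under 0.05, although in 11 of the 13 every TGFB1 library was above every untreated one, as in 25.4% of all genes. In 68 nuclear members every TGFB1 library was below, as in 22.1% of all genes. The nuclear sum was 24571 ± 857 in TGFB1 monolayers, against 32404 ± 554 in untreated monolayers (SD, n = 3 each), or 24.2% less. Members that fell numbered 24 of 35 in complex I (median -0.34), 3 of 4 in complex II (median -0.40), 5 of 8 in complex III (median -0.40), 8 of 13 in complex IV (median -0.37) and 13 of 15 in complex V (median -0.47). The nuclear count fell to between 31 and 42 when 1 library was left out, the lowest without untreated monolayer library 3 and 34 without untreated monolayer library 1. Untreated monolayer libraries 1 and 2 carry a reference to 1 shared earlier sample in their labels, although the levels of the 89 members tested differed between them by a median of 5.86% and by up to 32.6%.

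Apart from Cox6a2, the largest decreases with TGFB1 in monolayers among the members called were those of Atp5g1, Ndufa5, Uqcr10 and Atp5f1. Atp5g1 had 504, 557 and 559 in TGFB1 monolayers, against 879, 889 and 862 in untreated monolayers (log2 -0.70 ± 0.08, adjusted p = 0.000408). Atp5f1, a subunit of the peripheral stalk of ATP synthase, had 289.7, 301 and 294 in TGFB1 monolayers, against 464, 451 and 456 in untreated monolayers (log2 -0.63, adjusted p = 0.000408). Ndufa5, an accessory subunit of the matrix arm of complex I, had 176, 151 and 170.1 in TGFB1 monolayers, against 293, 243 and 258 in untreated monolayers (log2 -0.67, adjusted p = 0.00105). Each of these groups was separate from the other. Uqcr10, a small subunit of complex III, had 477, 561 and 582 in TGFB1 monolayers, against 844, 839 and 829.6 in untreated monolayers (log2 -0.64, adjusted p = 0.0058). Cox5b, a zinc-binding subunit of complex IV, had 386, 447 and 444 in TGFB1 monolayers, against 627, 619 and 616 in untreated monolayers (log2 -0.55, adjusted p = 0.00264). Sdha, which did not pass the test for spheroid culture, fell to 141, 135 and 137 in TGFB1 monolayers, against 170.1, 182 and 178 in untreated monolayers (log2 -0.36, adjusted p = 0.0034).

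Some members differed less. Uqcrfs1 had 238, 259 and 258 in TGFB1 monolayers, against 272, 277 and 277 in untreated monolayers, which did not overlap but were close (log2 -0.13, adjusted p = 0.204). Ndufa4 had 758, 894 and 922 in TGFB1 monolayers, against 1092, 1119 and 1102 in untreated monolayers (log2 -0.37, adjusted p = 0.117). Cox6a2 had the largest fold change of any nuclear member, with 1.62, 2.54 and 1.59 in TGFB1 monolayers against 10.6, 7.98 and 10.4 in untreated monolayers (log2 -1.87 ± 0.53, adjusted p = 0.0332), but at these low levels the call was lost whichever of the 6 libraries was left out (adjusted p from 0.0577 to 0.103). Nuclear members have short transcripts, with a median of 732 bases against 2647 for all genes tested. Other genes with transcripts under 1000 bases had a median log2 difference of -0.08 with TGFB1 in monolayers, against -0.36 for nuclear members. Of these 1082 short genes 115 fell and 40 rose. Of 5119 other genes of 3000 bases or more, 311 fell and 615 rose. For untreated spheroids against untreated monolayers, the medians were -0.063 for the short genes and 0.038 for the long ones. The part of transcript length in the nuclear differences of either comparison was not tested.

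**Figure D4:**
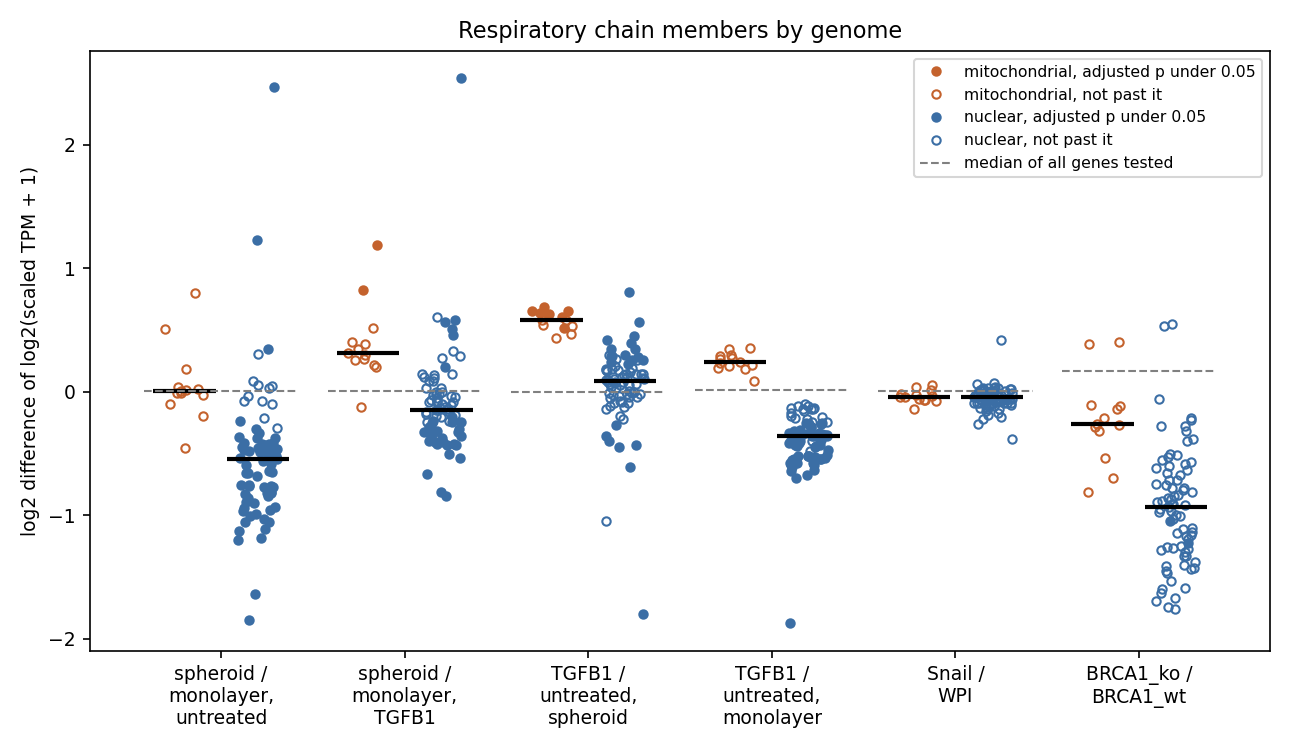
Log2 difference of each member in 6 comparisons, on log2(scaled TPM + 1). Within each comparison, mitochondrial members are on the left and nuclear members on the right. Filled points passed an adjusted p of 0.05 in limma, black bars are medians and the dashed line is the median of all genes tested. Nuclear medians are -0.54 for spheroids against monolayers and -0.36 for TGFB1 in monolayers, where mitochondrial medians are 0.01 and 0.24; in TGFB1 against untreated spheroids the nuclear median is 0.09 and falls to -0.10 when libraries are scaled to equal sums.

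In spheroids, TGFB1 was followed by higher mitochondrial RNA in some libraries and by mixed nuclear changes. Of 76 nuclear members 14 rose and 7 fell, against 18.8% and 16.8% of all genes tested, with a median log2 difference of 0.09. Of 13 mitochondrial members 7 rose and none fell, and all 13 differences were positive (from 0.44 to 0.69, median 0.58). All TGFB1 libraries were above all untreated ones for 18 nuclear and 3 mitochondrial members and below them for 7 nuclear members, against 23.4% and 20.5% of all genes. The split of nuclear calls depended on scaling: with libraries set to equal sums over all genes, the median of all genes moved to -0.16, 4 nuclear members rose, 23 fell and 5 mitochondrial members rose, and the nuclear median turned to -0.10. The mitochondrial calls depended on single libraries, with all 13 called without TGFB1 spheroid library 1, none without TGFB1 spheroid library 2 or 3 or untreated spheroid library 2, 4 without untreated spheroid library 1 and 7 without untreated spheroid library 3. The total of 28 calls ranged from 12 to 42 over these fits.

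mt-Cytb, the mitochondrially encoded core of complex III, had 5562, 10290.4 and 8812 in TGFB1 spheroids, against 4980.1, 4357 and 5547 in untreated spheroids. All TGFB1 libraries were higher, the first only just (log2 0.69 ± 0.20, adjusted p = 0.0191). The complex I genes mt-Nd1, mt-Nd4, mt-Nd4l, mt-Nd5 and mt-Nd6 rose by 0.63, 0.65, 0.64, 0.66 and 0.60 on the log2 scale, and mt-Atp6 by 0.52 (adjusted p = 0.0175 to 0.0481). For mt-Nd1, 4625, 8371 and 6899 in TGFB1 spheroids stood against 4326, 3791 and 4368 in untreated spheroids. For mt-Nd5, 1731, 3229 and 2860.1 in TGFB1 spheroids stood against 1733, 1453 and 1624 in untreated spheroids, so its first TGFB1 library was level with the highest untreated one. mt-Co1 spread the most, with 11664, 38258 and 26499 in TGFB1 spheroids against 17913, 15889 and 12320.4 in untreated spheroids, and was not called (log2 0.58 ± 0.34, adjusted p = 0.208). The spread of mt-Co1 in TGFB1 spheroids exceeded the difference between the groups. Endothelial markers, in TGFB1 spheroids mostly Cdh5, summed to 26.0 to 52.4 in TGFB1 spheroids, 2.41 to 6.67 in untreated spheroids and at most 2.24 in monolayers, with Kdr under 0.1 in these groups. Stromal markers summed to 407 to 1088 in TGFB1 spheroids, against 244 to 263 in untreated spheroids, and the part of these lists in the result was not tested.

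Among nuclear members in spheroids, Ndufa4 rose to 512, 598 and 509 with TGFB1, against 279, 258 and 400.4 in untreated spheroids (log2 0.81 ± 0.15, adjusted p = 0.00202). Uqcrq, a small subunit of complex III, rose to 465, 617 and 619.9 with TGFB1, against 402, 424 and 319.9 in untreated spheroids (log2 0.57, adjusted p = 0.0062). Ndufa1, an accessory membrane subunit of complex I, rose to 379, 403 and 346 with TGFB1, against 259.8, 277 and 286 in untreated spheroids (log2 0.45, adjusted p = 0.00232). These groups did not overlap. Atp5o rose to 126, 158 and 138 with TGFB1, against 97.3, 101 and 115 in untreated spheroids (log2 0.42, adjusted p = 0.00469), and Cox7a2 rose to 366, 448 and 401 with TGFB1, against 309, 315 and 325 in untreated spheroids (log2 0.35, adjusted p = 0.00624). In the other direction Ndufv3, a small subunit of the NADH-oxidising part of complex I, fell to 148, 156 and 181 with TGFB1, against 230.1, 232 and 276 in untreated spheroids (log2 -0.60 ± 0.10, adjusted p = 0.00124). Ndufa6 fell to 273, 274 and 335 with TGFB1, against 387, 406 and 391 in untreated spheroids (log2 -0.43, adjusted p = 0.00942), and Sdha fell to 141, 153 and 155 with TGFB1, against 180.4, 176 and 185 in untreated spheroids (log2 -0.27, adjusted p = 0.00637). The complex I accessory subunits Ndufb3 and Ndufb11 fell by 0.45 and 0.35 on the log2 scale, and Atp5s, a coupling factor of ATP synthase, by 0.40, a call lost without untreated spheroid library 2 or 3 or TGFB1 spheroid library 2 (adjusted p from 0.0692 to 0.104). Cox6a2 had 13.8, 6.74 and 40.3 in TGFB1 spheroids, against 73.4, 84.6 and 30.3 in untreated spheroids (log2 -1.80, adjusted p = 0.0215). Its groups overlap, and the call was lost without untreated spheroid library 1 or 2 or TGFB1 spheroid library 1 or 2 (adjusted p from 0.0544 to 0.084). Atp5g1, with 296, 300.3 and 305 in TGFB1 spheroids against 267, 262 and 316 in untreated spheroids, was not called (log2 0.10, adjusted p = 0.377).

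The effect of TGFB1 on nuclear members differed between spheroids and monolayers by the test of that difference. TGFB1 was given to the spheroid cells before the move to low-attachment plates, so its timing and the culture cannot be told apart. The TGFB1 effect in spheroids was above that in monolayers for 46 of 76 nuclear members and below it for none, against 8.72% and 7.11% of all genes tested, with a median difference of 0.46 on the log2 scale and 72 of 76 values positive. Of these 46, 40 fell with TGFB1 in monolayers, while in spheroids 14 rose with TGFB1, none fell and 38 had a positive difference. No mitochondrial member differed by limma, at the adjusted threshold or at an unadjusted p under 0.05, and their median was 0.33. By complex the 46 members were 19 of complex I, 3 of complex II, 5 of complex III, 8 of complex IV and 11 of complex V. With equal sums over all genes the median of all genes moved to -0.21, 22 nuclear members were above and 1 below. Without TGFB1 spheroid library 1, 53 nuclear and 11 mitochondrial members were called.

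Ndufa4 had the largest such difference among nuclear members (log2 1.18 ± 0.21, adjusted p = 0.0042), with the values given above: below the untreated libraries under TGFB1 in monolayers and above them in spheroids. Uqcrq, which had 459.8, 463 and 468 in TGFB1 monolayers, against 700.4, 625 and 701 in untreated monolayers, fell there by 0.54 and rose in spheroids by 0.57 on the log2 scale (difference 1.11 ± 0.18, adjusted p = 0.00281). Atp5o fell in monolayers by 0.52 and rose in spheroids by 0.42 (difference 0.94 ± 0.13, adjusted p = 0.000999). For Atp5g1 the difference of 0.80 (adjusted p = 0.00135) came from the monolayers, since its spheroid values with and without TGFB1 overlap. Sdha, which fell in both cultures, had a difference of 0.09 ± 0.09 (adjusted p = 0.539), and Cox6a2 one of 0.07 ± 0.74 (adjusted p = 0.962), whose error would cover a large difference either way.

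Among cells given TGFB1, fewer nuclear members separated spheroids from monolayers than among untreated cells, which restates the difference of effects just tested. Of 76 nuclear members 28 fell and 6 rose in TGFB1 spheroids against TGFB1 monolayers, with 26.5% and 25.3% of all genes doing so and a nuclear median of -0.14. The libraries of the groups did not overlap for 34 nuclear members that were lower and 10 that were higher in spheroids, against 30.2% and 29.2% of all genes. With equal sums over all genes, the median of all genes moved to -0.15, and 48 nuclear members fell and 4 rose. The ATP synthase held the most decreases for its size, 9 of 15, beside 12 of 35 in complex I, 4 of 13 in complex IV, 2 of 8 in complex III and 1 of 4 in complex II. Atp5g1 had 296, 300.3 and 305 in TGFB1 spheroids, against 504, 557 and 559 in TGFB1 monolayers (log2 -0.84, adjusted p = 9.38e-06). Uqcrfs1 had 138, 150.2 and 141 in TGFB1 spheroids, against 238, 259 and 258 in TGFB1 monolayers (log2 -0.81, adjusted p = 2.42e-06). Both were called in either pair of cultures, with no overlap between spheroids and monolayers. Of those that rose, Ndufs7, an iron-sulfur subunit of complex I, had 145, 152 and 167 in TGFB1 spheroids, against 99.7, 104 and 108 in TGFB1 monolayers (log2 0.57, adjusted p = 0.000133). Cox7a2l, a relative of Cox7a2 involved in joining complexes III and IV, had 241, 299 and 241 in TGFB1 spheroids, against 146, 183 and 192 in TGFB1 monolayers (log2 0.58, adjusted p = 0.00272), and Ndufb5, an accessory subunit of complex I, rose by 0.51 on the log2 scale (adjusted p = 0.00111). mt-Co1 rose to 11664, 38258 and 26499 in TGFB1 spheroids, against 9207, 10244 and 10505 in TGFB1 monolayers (log2 1.19 ± 0.34, adjusted p = 0.013), and mt-Co2 to 9756, 28423 and 22096 in TGFB1 spheroids, against 9818, 10368 and 10831 in TGFB1 monolayers (log2 0.82, adjusted p = 0.0423). The first TGFB1 spheroid library of mt-Co2 lay below all TGFB1 monolayers. The 2 mitochondrial calls became 12 without TGFB1 spheroid library 1 and 1 without any of the other 5 libraries.

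Genes that serve the chain without being named by the rule moved in part with its nuclear members. Cox4i1, a core nuclear subunit of complex IV, fell in untreated spheroids against untreated monolayers (log2 -0.52, adjusted p = 0.000555), and fell with TGFB1 in monolayers (log2 -0.36, adjusted p = 0.02). Cyc1 (cytochrome c1 of complex III) and Ndufab1 (the acyl carrier subunit of complex I) each fell by 0.63 in untreated spheroids against untreated monolayers. Cycs, cytochrome c itself, fell in untreated spheroids (log2 -0.79, adjusted p = 0.000482) and rose with TGFB1 in spheroids (log2 0.51, adjusted p = 0.0128). Of 78 mitochondrial ribosomal protein genes, which are nuclear genes needed to translate mitochondrial messages, 49 fell and 5 rose in untreated spheroids (median -0.41), beside the 27.7% and 27.6% of all genes given above. Of 20 genes of the TCA cycle, which feeds electrons to the chain, 11 fell and 1 rose (median -0.38). Against that direction, Pdk1, a kinase that holds back the entry of pyruvate into the cycle, had 50.2, 51.1 and 46.6 in untreated spheroids, against 15.3, 14.0 and 10.9 in untreated monolayers (log2 1.81, adjusted p = 5.95e-05). Coq8a, which takes part in ubiquinone synthesis, had 110.5, 98.5 and 80.3 in untreated spheroids, against 5.15, 6.20 and 4.12 in untreated monolayers (log2 3.99 ± 0.68, adjusted p = 0.000519). With TGFB1 in spheroids both fell against untreated spheroids, Pdk1 to 13.9, 13.2 and 27.5 and Coq8a to 10.3, 1.98 and 36.6 (log2 -1.47 and -3.16). Like Cox6a2, both had their highest TGFB1 spheroid value in library 3. Of 16 factors that maintain and transcribe mitochondrial DNA, 5 rose and 2 fell in untreated spheroids, and for increases this share is near that of all genes. Among them Tfam, which packs mitochondrial DNA and starts its transcription, was not called (log2 -0.03, adjusted p = 0.857), nor was Polrmt, the mitochondrial RNA polymerase (log2 0.18, adjusted p = 0.134). Lrpprc, which stabilises mitochondrial messages, had 22.7, 21.7 and 19.3 in untreated spheroids, against 46.2, 40.4 and 44.7 in untreated monolayers (log2 -1.01, adjusted p = 6.31e-06), so it was lower in the libraries where mitochondrial messages were not. With TGFB1 in monolayers, 11 of 78 mitochondrial ribosomal protein genes fell and 2 rose, against 7.79% and 9.12% of all genes. None of the 16 genes for mitochondrial DNA or of 20 for mitochondrial RNA processing was called by limma, and at those shares few calls would be made in lists of this size.

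The coactivators of mitochondrial biogenesis were at low level. Ppargc1a (PGC-1alpha) had 1.66, 2.74 and 1.99 in TGFB1 spheroids, 1.58, 1.44 and 2.79 in untreated spheroids, 0.294, 0.705 and 1.21 in TGFB1 monolayers and 5.68, 5.53 and 5.71 in untreated monolayers. Untreated monolayers were the highest group and TGFB1 monolayers the lowest. It fell in untreated spheroids against untreated monolayers (log2 -1.21, adjusted p = 0.000992), fell with TGFB1 in monolayers (log2 -1.97, adjusted p = 0.000388) and was not called for TGFB1 in spheroids (log2 0.11, adjusted p = 0.747), and the TGFB1 effects differed (log2 2.08, adjusted p = 0.002). Its relative Ppargc1b fell with TGFB1 in monolayers (log2 -0.85, adjusted p = 0.0128) and rose with TGFB1 in spheroids (log2 0.76, adjusted p = 0.0107). Esrra, the gene of ERR alpha, through which these coactivators work, had 44.2, 45.4 and 41.4 in TGFB1 spheroids, against 31.2, 28.2 and 27.3 in untreated spheroids (log2 0.58, adjusted p = 0.000258).

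Snail overexpression gave no respiratory chain calls. None of 76 nuclear and 13 mitochondrial members passed the threshold of limma, against 0.572% of 12240 genes that rose and 1.14% that fell, and 9 nuclear members and no mitochondrial one had an unadjusted p under 0.05. Median log2 differences were -0.04 for nuclear and -0.04 for mitochondrial members. Ndufa4 had 974, 1094 and 986 in Snail libraries, against 914, 1005 and 976 in WPI libraries (log2 0.08 ± 0.06), and mt-Co1 had 9393, 9187 and 9065 in Snail libraries, against 10409, 9194 and 9356 in WPI libraries (log2 -0.07 ± 0.07), both with overlap. Uqcrfs1 was nearest to a call, with 208, 217 and 215 in Snail libraries against 241, 249 and 241 in WPI libraries (log2 -0.19 ± 0.04, adjusted p = 0.102). In 13 nuclear members and 1 mitochondrial member all Snail libraries were below all WPI libraries, as in 10.9% of all genes, and in no member were all of them above, against 9.7% of all genes. The authors' deposited table called 2 nuclear members lower in Snail libraries at a q-value under 0.05, Atp5d (log2 -0.22, q = 0.0223) and Cox5a (log2 -0.20, q = 0.049), and no mitochondrial member (lowest q = 0.605, mt-Nd1).

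In the libraries labelled BRCA1_ko, nuclear members were called lower in 2 cases and mitochondrial members in none, and the BRCA1_wt libraries were uneven. Uqcrfs1 had 66.0, 79.2 and 63.6 in BRCA1_ko libraries, against 183, 107 and 219.6 in BRCA1_wt libraries (log2 -1.22 ± 0.30, adjusted p = 0.0433). Cox6b2, the testis form of complex IV subunit 6B, had 0, 0.955 and 0.277 in BRCA1_ko libraries, against 1.77, 1.71 and 1.95 in BRCA1_wt libraries (log2 -1.05, adjusted p = 0.0466). Cox6b2 passed the filter on low values only through the BRCA1_wt libraries. Its direction was therefore set by that filter, and no conclusion is drawn from its call. Across all 12775 genes 5.27% fell and 9.04% rose. All BRCA1_ko libraries were below all BRCA1_wt libraries for 21 nuclear members and above them for 1, against 18.3% and 26.6% of all genes. The 13 mitochondrial members had a median of -0.26 and none had an unadjusted p under 0.05 in limma, against 28 of 77 nuclear members, whose median was -0.93. Both calls ended without BRCA1_ko library 1 or 3 or BRCA1_wt library 1 or 3, that of Uqcrfs1 also without BRCA1_ko library 2, while 70 nuclear members fell without BRCA1_wt library 2. By the authors' deposited table, 4 nuclear members were lower in BRCA1_ko at a q-value under 0.05: Uqcrfs1 (log2 -1.57, q = 0.00491), Cox7a1 (log2 -1.87, q = 0.0245), Ndufs8 (log2 -1.68, q = 0.0418) and Uqcrb (log2 -1.99, q = 0.0459).

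For nuclear members BRCA1_wt library 2 lay near the BRCA1_ko libraries, and BRCA1_wt libraries 1 and 3 lay above both. Atp5k had 291, 365 and 273 in BRCA1_ko libraries, against 1325, 309 and 2299 in BRCA1_wt libraries, where only the second is near the BRCA1_ko level. Uqcrb, a subunit of complex III, had 148, 167 and 140.0 in BRCA1_ko libraries, against 588, 201 and 879 in BRCA1_wt libraries. mt-Co1 had 11789, 11014 and 13856 in BRCA1_ko libraries, against 10625, 9179 and 31539 in BRCA1_wt libraries, so here the third alone stood apart. Relative to BRCA1_wt library 2, nuclear members had medians of -0.03, 0.15 and -0.02 (log2) in the 3 BRCA1_ko libraries, against 1.34 in BRCA1_wt library 1 and 1.89 in library 3, and mitochondrial members had medians of 0.36, 0.30 and 0.55 in BRCA1_ko libraries, against 0.10 and 2.03 in those BRCA1_wt libraries. Transcript length moved with this split: over 11737 other genes, the log2 difference from BRCA1_wt library 2 had a Spearman correlation with length of -0.62 in BRCA1_wt library 1 and -0.57 in library 3, a description across genes, which share each library and are not independent. Other genes under 1000 bases had medians of 0.96 and 1.36 in these 2 libraries, and those over 3000 bases -0.74 and -0.86, and the part of transcript length in the nuclear differences was not tested.

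**Figure D5:**
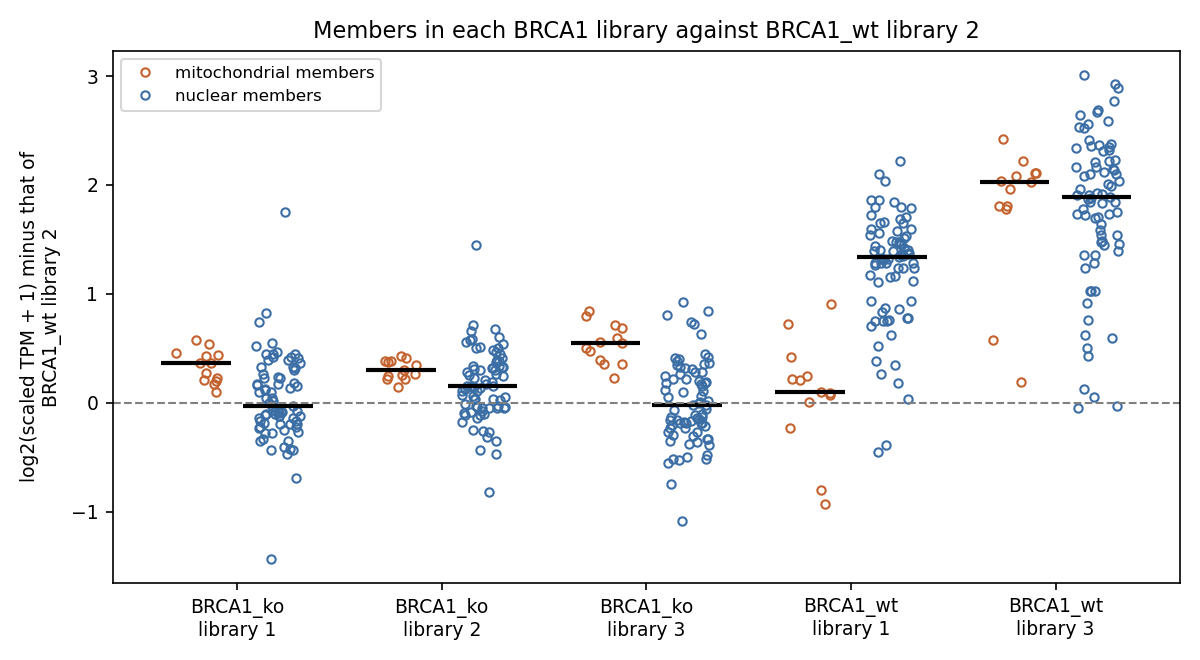
Log2 difference of each member from BRCA1_wt library 2 in the 3 libraries labelled BRCA1_ko and in BRCA1_wt libraries 1 and 3, on log2(scaled TPM + 1), by genome; bars are medians. Nuclear members lie near 0 in the BRCA1_ko libraries and at medians of 1.34 and 1.89 in the 2 BRCA1_wt libraries.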

How the data were processed

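Per the submitters' processing notes, kallisto 0.44.0 and sleuth 0.30.0 were used with the mouse build GRCm38. For each experiment the authors deposited a gene table of signal values under the name of TPM. Its columns do not sum to 1000000, and these values are therefore called scaled TPM. Each of the 3 tables had its own normalization, so levels are compared within a table only. For Snail and BRCA1, the p-value, the q-value and the coefficient of each gene were taken from the authors' result tables. The authors' coefficients are natural log values and were turned into log2 through division by the natural log of 2. No read counts were used, so the depth behind each value is unknown and counting errors could not be computed. Libraries were prepared with poly(A) selection and a directional kit, per the labels' protocols, and mitochondrial messages carry short or no tails, which may lower their capture.

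Tests used limma 3.58.1 under R 4.3.3, with moderated variances that follow a trend on the mean level, on log2(scaled TPM + 1), so folds of low genes are understated. Genes at or above a scaled TPM of 1 in at least 3 libraries were tested: 13509 for monolayers and spheroids (12 libraries fitted together), 12240 for Snail and 12775 for BRCA1. A gene was called at a two-sided Benjamini-Hochberg adjusted p under 0.05 over all genes of its comparison. Errors beside log2 differences are standard errors. This test was planned for TPM and was not changed once the values proved to be scaled. Gene identifiers were found in GENCODE M21 for 98.4% of entries. Where a symbol had 2 identifiers with the same values it was counted once. For monolayers and spheroids Atp5o had a second identifier whose values summed to 0, which was left out.

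The members and the lists of other genes were chosen with earlier results of these data known. Named in each comparison are all mitochondrial members, the 5 nuclear members with the largest increase and decrease among those called without overlap of groups, fixed members of each complex, the 3 called genes of largest change per other list and fixed regulators, as far as space allows; Cox7a2l, Atp5s and the BRCA1 examples Atp5k and Uqcrb were named partly after their values were seen. Alternatives were another pseudocount (0.1), no filter on low values, equal sums of libraries, library quality weights, replicate number as a block, fits of the 6 libraries compared and leaving out each library. Deviations from group means had correlations from -0.32 to 0.186 between same-numbered monolayer and spheroid libraries, against -0.307 to 0.368 between differently numbered ones. For Snail these ran from -0.08 to 0.331, against -0.214 to 0.254, and for BRCA1 from -0.167 to -0.05, against -0.188 to 0.209. Only in Snail did a same-numbered pair exceed every differently numbered one, and the numbers were not taken as pairs. Python 3.11.15 with pandas 2.3.3, numpy 2.4.6, scipy 1.17.1 and matplotlib 3.10.9 read the tables and drew the figures.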

Additional observations from a re-analysis of the deposited data

Results flagged for a closer look

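Listed here are 11 of the 46 nuclear members for which the effect of TGFB1 differed between spheroids and monolayers. Each passed the limma test of that difference across all genes (adjusted p under 0.05). Other members that the report describes passed it too, among them Cox5a and Ndufa5. The values are the log2 effect of TGFB1 in spheroids minus that in monolayers. The limit on the timing of TGFB1 given above holds for them too. In complex I the value was 0.399 for Ndufs1 and 0.798 for Ndufa1, in complex II it was 0.462 for Sdhb, and in complex III it was 1.11 for Uqcrq. In complex IV it was 0.497 for Cox5b, 0.68 for Cox7a2 and 1.18 for Ndufa4. In the ATP synthase it was 0.572 for Atp5g3, 0.797 for Atp5g1, 0.808 for Atp5f1 and 0.942 for Atp5o. With equal sums of libraries Ndufs1, Sdhb and Cox5b no longer passed (adjusted p = 0.201, 0.139 and 0.127). The call of Sdhb was also lost without any of 9 single libraries (adjusted p from 0.0504 to 0.0936), and that of Cox5b without untreated monolayer library 1 or 3 or TGFB1 spheroid library 2 (adjusted p from 0.0503 to 0.0534).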

How the results depend on the processing

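The count of members called for spheroids against monolayers was 65 among untreated cells (60 to 66 when 1 library was left out, 63 to 73 under the other alternatives). With TGFB1 it was 36 and became 53 with equal sums, 51 with equal sums outside the mitochondrial genome, 49 with quality weights, 30 without the filter and 26 to 42 without 1 library, and the Snail count was 0 throughout. For TGFB1 in monolayers the count of 53 became 82 with library quality weights and 31 to 42 without 1 library. For TGFB1 in spheroids the count of 28 became 47 with quality weights, 6 in a fit of the 6 libraries alone and 12 to 42 without 1 library. The count of 46 members whose TGFB1 effect differed became 23 with equal sums, 24 with equal sums outside the mitochondrial genome and 33 to 64 without 1 library. The BRCA1 count of 2 became 1 with a pseudocount of 0.1, 0 without the filter, 0 with equal sums of either kind, 86 with quality weights and 0 to 72 without 1 library, the highest without BRCA1_wt library 2. With quality weights mt-Atp6, mt-Atp8, mt-Nd2, mt-Nd4 and mt-Nd4l reversed in BRCA1_ko to 0.33, 0.49, 0.47, 0.35 and 0.62 (log2). Against BRCA1_wt library 2 alone the BRCA1 count was 0, but that library was picked after its closeness to BRCA1_ko was seen and the spread came from the BRCA1_ko libraries alone, so this count says nothing of stability. Equal sums moved the median of all genes to 0.63 in BRCA1. The cause of these shifts was not tested.

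As a replicate block, the replicate number gave 65, 51, 24, 37, 40 and 0 calls for the comparisons of untreated cultures, TGFB1 in monolayers, TGFB1 in spheroids, cultures with TGFB1, the difference of effects and Snail, and 0 for BRCA1.

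The log2 ratio of mitochondrial to nuclear sums, higher by 0.89 in untreated spheroids than in monolayers, was 0.77 without the top gene of each genome and 0.35 from medians over genes. From medians it was 0.58 for TGFB1 in monolayers, 0.36 for cultures with TGFB1 and -0.13 for Snail. Without 1 library it ran from 0.82 to 0.92 for untreated cultures, 0.62 to 0.68 for TGFB1 in monolayers, 0.28 to 0.73 for TGFB1 in spheroids, 0.53 to 0.98 for cultures with TGFB1, -0.05 to 0.09 for Snail and 0.31 to 0.88 for BRCA1, and its difference of effects, -0.16 with all libraries, from -0.36 to 0.09. Against BRCA1_wt library 2 alone the BRCA1 value was 0.28. Of 3075 alternatives for 226 values of named members, 2762 kept their direction and side of the threshold, 162 lost a call, 146 gained one and 5 reversed. Unknown depth limits statements on genes of low level such as Cox6a2 and Cox6b2.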
